A study of Homo sapiens with 8 samples.

Results

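Matrix Gla protein (MGP), its 2 relatives GAS6 and PROS1 and the vitamin K cycle enzymes GGCX and VKORC1 were followed across a pair of primary effusion lymphoma lines with and without lenalidomide. Every probe of the non-normalised array table annotated to one of these 5 symbols was taken, which gave 10 of the 47323 probes, for 5 of the 20046 genes with a probe of a single symbol: 2 for MGP, 4 for GAS6, 1 for PROS1, 1 for GGCX and 2 for VKORC1. MGP was picked for its rise with the drug in these same arrays, so its values are given as a description with no test. The other 4 genes were taken for their place in the same biochemical system.

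Primary effusion lymphoma is a B-cell lymphoma that carries Kaposi sarcoma-associated herpesvirus and grows in body cavities with a plasma-cell-like expression programme. The 4 groups were BC3 given 5 µM lenalidomide, BC3 given the solvent DMSO, BCBL1 given 5 µM lenalidomide and BCBL1 given DMSO, with 2 arrays each and the same culture medium apart from the agent. Lenalidomide is an immunomodulatory drug that turns the cereblon ubiquitin ligase against the transcription factors IKZF1 and IKZF3. How long the cells were exposed is not stated in the labels, and each model is 1 established cell line. The series text calls the 2 arrays of a group technical replicates, so the p-values below measure the spread between arrays and not between cultures. The exception is the fit with the line as replicate. Its error comes from how far the drug differences of BC3 and BCBL1 disagree, on the probe itself in part and mostly pooled over the other probes.

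Vitamin K serves as the cofactor of GGCX, the gamma-glutamyl carboxylase of the endoplasmic reticulum, which turns glutamate residues of a few secreted proteins into calcium-binding gamma-carboxyglutamate, or Gla. Each round oxidises the vitamin, and VKORC1, the epoxide reductase blocked by warfarin, brings it back to the reduced form. MGP is a small Gla protein of vascular smooth muscle and cartilage that keeps soft tissue from calcifying and binds bone morphogenetic proteins. GAS6 and protein S, the product of PROS1, are Gla proteins that bridge phosphatidylserine on membranes to receptor kinases of the family of TYRO3, AXL and MERTK. Protein S is in addition an anticoagulant cofactor of activated protein C.

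The promoters of PROS1 and GAS6 are shown because these were the 2 Gla genes with a called change under the drug, MGP not being tested. Each is the 250 bases before the RefSeq start site on GRCh38.p14, read on the gene's own minus strand, 5′ to 3′. Capitals mark GGGAA, the core that Ikaros-family zinc fingers bind, or its reverse complement TTCCC. The PROS1 window is chr3:93973897-93974146 and the GAS6 window is chr13:113864077-113864326.
PROS1: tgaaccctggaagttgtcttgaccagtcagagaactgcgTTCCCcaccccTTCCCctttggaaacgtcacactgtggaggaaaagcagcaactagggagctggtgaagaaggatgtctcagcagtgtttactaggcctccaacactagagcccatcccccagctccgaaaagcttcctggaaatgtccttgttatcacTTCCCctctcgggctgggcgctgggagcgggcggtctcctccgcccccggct
GAS6: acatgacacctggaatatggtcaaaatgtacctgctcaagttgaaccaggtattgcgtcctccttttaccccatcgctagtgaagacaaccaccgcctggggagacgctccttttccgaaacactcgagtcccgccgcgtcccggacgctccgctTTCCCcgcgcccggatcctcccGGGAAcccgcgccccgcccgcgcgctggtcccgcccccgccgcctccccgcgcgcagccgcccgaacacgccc
The core occurred 3 times in the PROS1 window and 2 times in the GAS6 window, against 1 time each in the windows of GGCX and VKORC1. A match on either strand was present in 59% of 35116 promoter windows of the same length, so the presence of these letters does not set the members apart. How many of those windows hold 2 or 3 matches was not counted, so the difference in number is not read as a result. An AP-1 site, TGANTCA, was searched on both strands too and had 0 matches in the 4 windows, with 6.57% of all windows holding one. MGP is not in the promoter table. The bases of the array probes were not used here, so where in a transcript each probe lies is not stated.

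A probe was taken as above background when its intensity passed a threshold set on each array from the lower flank of its signal distribution, which lay between 142 and 159 intensity units. On the 8 arrays the median intensity ran from 137 to 153, between 43.7% and 44.9% of probes were above background, and the 2 arrays of a group correlated at r = 0.993 to 0.995 over the kept probes. A probe was kept for the fit when both arrays of at least 1 group were above background, which held for 21969 probes and for 9 of the 10 member probes. Genes that this lymphoma expresses were present: of 13 probes for SDC1, PRDM1, IRF4, CD38 and PTPRC, 10 or 11 were above background on each array. Of 10 probes for the B-cell genes MS4A1, CD79A, CD79B and PAX5 that this lymphoma lacks, 1 to 5 were.

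MGP was near background with DMSO in both lines and far above it with lenalidomide in both. Its first probe, ILMN_1651958, read 1393 and 1272 on the lenalidomide arrays of BC3 and 171 and 167 on the DMSO arrays of BC3. In BCBL1 it read 7683 and 7455 with lenalidomide and 171 and 185 with DMSO. The 4 DMSO arrays of both lines thus sat just over the background threshold, the BC3 lenalidomide arrays well above them, and the BCBL1 lenalidomide arrays higher again, with no overlap between treatments. The second probe, ILMN_2071809, gave 1199 and 971 with lenalidomide against 123 and 122 with DMSO in BC3. In BCBL1 it gave 5775 and 6166 with lenalidomide against 149 and 135 with DMSO, and none of its 4 DMSO values was above background. Both probes ordered the groups alike, and over the 8 arrays they correlated at r = 0.998, a description over points that share 4 groups and are not independent.

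On the log2 scale after background correction and quantile normalisation, the first MGP probe was 3.55 ± 0.13 higher with lenalidomide than with DMSO in BC3 (difference ± standard error of the model, 2 arrays a group), or 11.7-fold. In BCBL1 the difference was 6.17 ± 0.13, or 72.2-fold. For the second probe the DMSO arrays give only a bound: with each DMSO array set to the lowest signal that counts as above background, lenalidomide was at least 11.1-fold higher in BC3 and at least 73.0-fold higher in BCBL1. Without background correction the first-probe differences came to 2.96 in BC3 and 5.57 in BCBL1, and in the authors' deposited log2 table they came to 4.62 and 7.17, so the fold depends on how background is treated while the direction does not. Among 21969 kept probes the second and first MGP probes ranked 1 and 2 by the fitted rise in BCBL1, and they ranked 2 and 3 in BC3, with the second probe's fitted rise set against DMSO arrays below background. Those ranks restate the choice of MGP and support nothing further. In RNA from whole cultures, a rise in every cell and a rise in a share of the cells cannot be told apart.

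The MGP rise was wider in BCBL1 than in BC3 by 2.63 ± 0.19 log2 units on the first probe; the second, with its DMSO arrays below background, gives no such value. The lines had similar MGP readings without the drug: BCBL1 minus BC3 under DMSO was 0.12 ± 0.13 on the first probe, with overlapping arrays. Under lenalidomide BCBL1 stood 2.75 ± 0.13 and 2.72 ± 0.14 above BC3 on the first and second probe. The order of the levels was therefore BCBL1 with lenalidomide, then BC3 with lenalidomide, then both DMSO groups, which differed by less than their spread on the first probe.

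**Figure D1:**
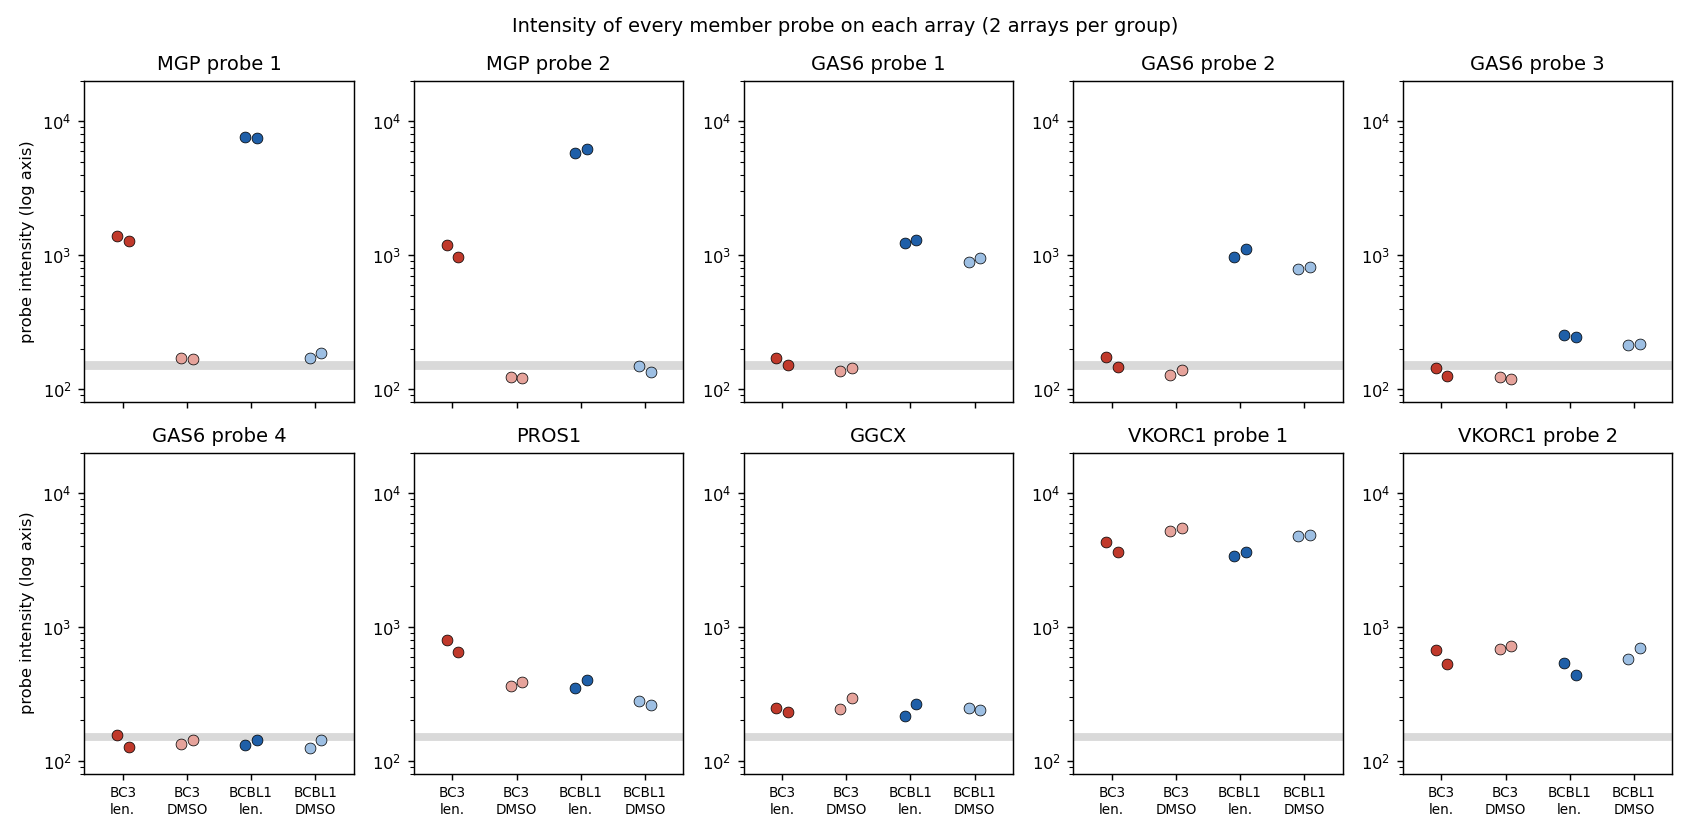
Intensity of each of the 10 member probes on every array (log axis, arbitrary scanner units), in 4 columns per panel, with 2 points for the 2 arrays of a group and a grey band for the range of the background thresholds. The 4 lenalidomide points of the first MGP probe lie between 1272 and 7683 and its 4 DMSO points between 167 and 185; GAS6 probes 1 to 3 separate the lines, and PROS1 separates the treatments within each line.

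PROS1, the gene of protein S, was the one member among those tested that passed in both lines. Its probe, ILMN_1671928, read 799 and 653 with lenalidomide and 361 and 387 with DMSO in BC3. In BCBL1 it read 349 and 401 with lenalidomide and 280 and 261 with DMSO. Within each line both lenalidomide arrays were above both DMSO arrays, and all 8 values were above background. The rise was 1.10 ± 0.13 log2 units in BC3, or 2.14-fold (limma, Benjamini-Hochberg adjusted p = 0.000188), and 0.78 ± 0.13 in BCBL1, or 1.71-fold (limma, adjusted p = 0.00518). The difference between those 2 rises, BCBL1 minus BC3, was -0.32 ± 0.18 with a 95% interval of -0.71 to 0.07 (limma, adjusted p = 0.614), so the wider rise in BC3 was not separated from the spread between arrays.

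The BC3 call held in each of 10 other processing settings and with each of the 8 arrays left out in turn. The BCBL1 call was lost without the second DMSO array of that line (limma, adjusted p = 0.0696) and without its second lenalidomide array (limma, adjusted p = 0.0642). In the authors' deposited log2 table with the replicate number as block, the BCBL1 call was lost as well (limma, adjusted p = 0.0625). PROS1 has a closely related pseudogene, and whether the probe tells the copies apart was not tested.

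GAS6 was detected in BCBL1 and at or near background in BC3. Its first probe, ILMN_1779558, read 1226 and 1309 with lenalidomide and 897 and 953 with DMSO in BCBL1. In BC3 the same probe read 172 and 151 with lenalidomide and 138 and 143 with DMSO. The second probe, ILMN_1784749, followed with 978 and 1118 against 785 and 824 in BCBL1, lenalidomide before DMSO, and with 173 and 147 against 128 and 139 in BC3. Both probes thus put every BCBL1 array well above every BC3 array, and within BCBL1 the lenalidomide arrays above the DMSO arrays.

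The rise of GAS6 in BCBL1 was 0.70 ± 0.12 log2 units on the first probe, or 1.62-fold (limma, adjusted p = 0.00863), and 0.63 ± 0.12 on the second, or 1.55-fold (limma, adjusted p = 0.0181). Leaving out any 1 of the 4 BCBL1 arrays ended both calls, with adjusted p between 0.0581 and 0.121 by limma, so the calls rest on having all 4. With an array left out the differences themselves ran from 0.67 to 0.72 on the first probe and from 0.61 to 0.65 on the second. With arrays scaled by their medians, the second probe missed the threshold too (limma, adjusted p = 0.0815). Both calls were also lost with a background offset of 16 (limma, adjusted p = 0.0599 and 0.0819) and in the authors' deposited log2 table (limma, adjusted p = 0.0728 and 0.119). The third probe, ILMN_1768260, had 254 and 244 under lenalidomide and 214 and 217 under DMSO in BCBL1. Its difference of 0.47 ± 0.15 did not pass the test (limma, adjusted p = 0.139). The fourth probe, ILMN_1781614, lay between 124 and 155 on all 8 arrays, was above background on none, and was not tested.

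In BC3 the GAS6 differences between lenalidomide and DMSO were 0.31 ± 0.12, 0.41 ± 0.12 and 0.27 ± 0.15 log2 units on probes 1 to 3. None passed the test (limma, adjusted p = 0.250, 0.106 and 0.426), and the DMSO arrays of BC3 were below background on each of the 3. With those arrays below background, the test could not show whether the size of the GAS6 drug effect differs between lines. The fitted difference on the first probe was 0.39 ± 0.17 (limma, adjusted p = 0.504). On probes 2 and 3 it was 0.21 ± 0.17 and 0.20 ± 0.21 (limma, adjusted p = 0.757 and 0.822). Of the BC3 lenalidomide arrays, 1 was above background on probe 2 and 0 on probe 3, so no BC3 effect was measurable there.

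**Figure D2:**
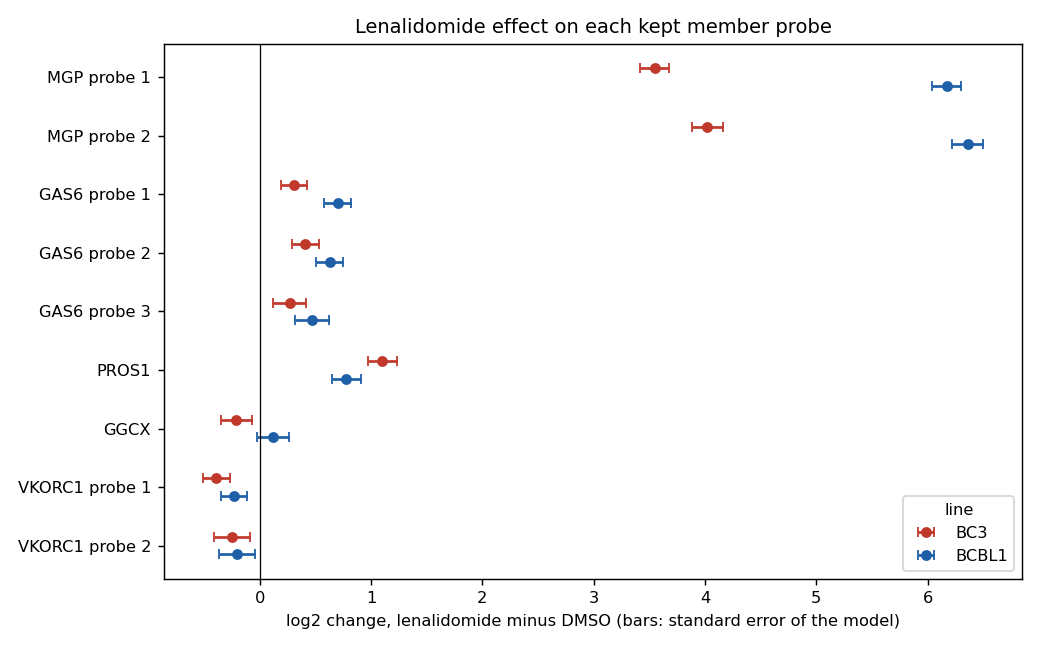
Log2 change with lenalidomide relative to DMSO for the 9 kept member probes in BC3 and BCBL1, with bars for the standard error of the model. The first MGP probe lies at 3.55 and 6.17, and the second is plotted at its fitted value against DMSO arrays that were below background, as are the GAS6 probes in BC3. The GAS6 and PROS1 probes lie between 0.27 and 1.10, and the GGCX and VKORC1 probes between -0.39 and 0.12.

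The 2 enzymes of the vitamin K cycle had no called change. GGCX, read by ILMN_1758232, was at 246 and 231 with lenalidomide against 245 and 292 with DMSO in BC3, and at 214 and 263 against 247 and 240 in BCBL1. In these intensities lenalidomide and DMSO arrays overlapped in both lines, while after normalisation both BC3 lenalidomide values, 7.35 and 7.47, lay below both BC3 DMSO values, 7.55 and 7.69. The log2 differences were -0.21 (95% interval -0.51 to 0.08) in BC3 and 0.12 (95% interval -0.18 to 0.41) in BCBL1. Neither value passed the test (limma, adjusted p = 0.514 and 0.752), and with 2 arrays a group a change inside those intervals is not excluded.

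VKORC1 was well above background in every group and was measured by a pair of probes. The first, ILMN_1739946, read 4296 and 3600 with lenalidomide against 5167 and 5449 with DMSO in BC3, and 3401 and 3605 against 4769 and 4809 in BCBL1. The second, ILMN_1786139, read 675 and 524 against 684 and 719 in BC3, and 536 and 439 against 572 and 691 in BCBL1. In these intensities each lenalidomide array was below each DMSO array on both probes and in both lines. The BCBL1 lenalidomide arrays were also dimmer as a whole, with medians of 137 and 144 against 145 and 149 with DMSO. In BC3 the array medians overlapped, at 152 and 142 against 140 and 153. After normalisation the groups stayed apart except on the second probe in BCBL1, where they overlapped. The normalised log2 differences on the first probe were -0.39 ± 0.12 in BC3 and -0.23 ± 0.12 in BCBL1, and those on the second were -0.25 ± 0.16 and -0.20 ± 0.16.

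None of these 4 VKORC1 differences passed the test (limma, adjusted p = 0.122 and 0.401 on the first probe, 0.510 and 0.607 on the second). With no background correction the first probe in BC3 did pass, at the same difference of -0.39 (limma, adjusted p = 0.0361). The 95% intervals of the first probe were -0.66 to -0.13 in BC3 and -0.49 to 0.03 in BCBL1.

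Of the 7 kept member probes other than MGP, 1 was called in BC3 (higher, PROS1), where 3.06% of the 21969 kept probes were called, 2.27% higher and 0.797% lower. In BCBL1 3 of the 7 were called (higher, PROS1 and GAS6 probes 1 and 2), where 2.05% of all kept probes were called, 1.52% higher and 0.528% lower. Over all probes, 335 of the 451 calls in BCBL1 were higher, and with median scaling 179 of 346 were. Those 3 probes report only 2 genes. Of the 7, 4 had an unadjusted p under 0.05 in each line, some of them probes of the same gene, GAS6. The share of all kept probes under that value was not counted. Counts by unadjusted p, here and for the related lists below, are therefore not read as results. For the difference between the lines' drug effects 0 of the 7 were called by limma and 1 had an unadjusted p under 0.05, where 0.305% of all kept probes were called.

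When the line rather than the array served as the replicate, with the 2 arrays of each group averaged and the line as a block, 1 of the 7 probes was called, PROS1, where 1.21% of all kept probes were called. It rose by 0.94 ± 0.12 log2 units, or 1.92-fold (limma, adjusted p = 0.00565), a call lost with a background offset of 16 (limma, adjusted p = 0.107) and in the authors' deposited log2 table (limma, adjusted p = 0.191). Over all probes 221 of the 265 calls of this fit were higher, and with median scaling 391 of 629 were. The first and second GAS6 probes came to 0.50 ± 0.13 and 0.52 ± 0.12 and missed the threshold (limma, adjusted p = 0.123 and 0.0717). The second passed with cyclic loess (limma, adjusted p = 0.0423) and with median scaling (limma, adjusted p = 0.0381), and both passed with no filter (limma, adjusted p = 0.0369 and 0.0182). These GAS6 values average in a BC3 difference set against DMSO arrays below background. On the second probe only 1 of the 2 BC3 lenalidomide arrays was above it. They therefore do not show a GAS6 rise in both lines. This fit has 1 residual degree of freedom a probe and borrows most of its error from the other probes. The first MGP probe had a difference of 4.86 ± 0.43 there.

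**Figure D3:**
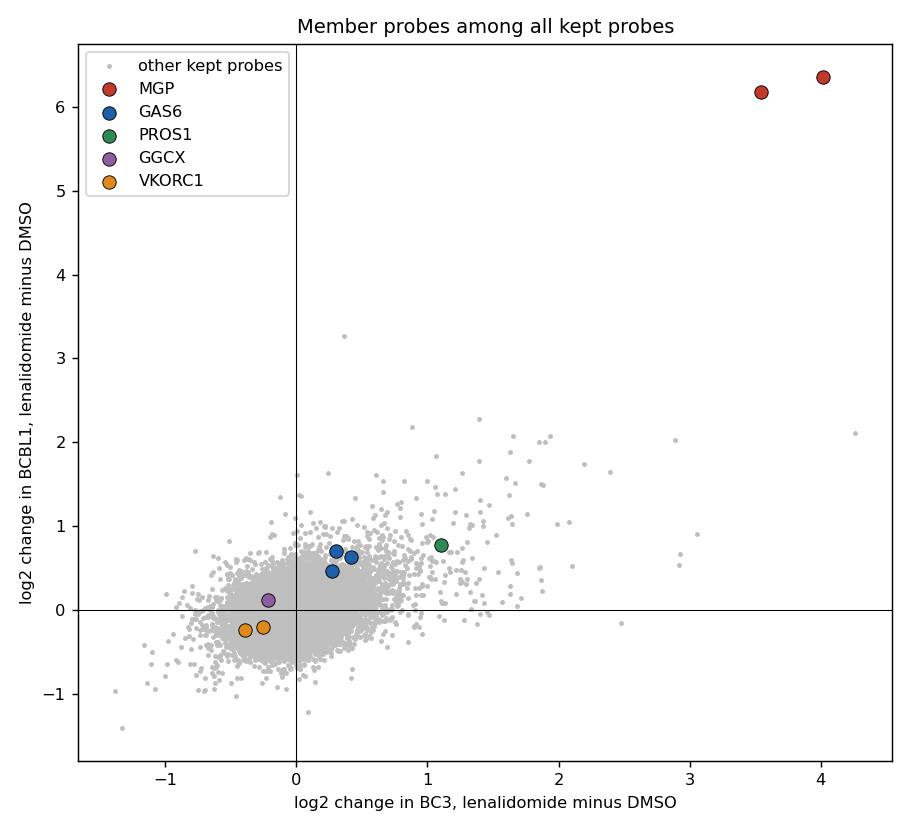
Log2 change with lenalidomide in BC3 (horizontal) and BCBL1 (vertical) for all 21969 kept probes in grey, with the 9 kept member probes coloured by gene. The 2 MGP probes stand alone at the upper right, PROS1 lies at 1.10 and 0.78, and the GAS6, GGCX and VKORC1 probes lie within the main cloud.

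Between the lines, GAS6 was higher and PROS1 lower in BCBL1 than in BC3, whichever agent was given. Of the 7 probes, 4 were called under DMSO, 3 higher and 1 lower, where 36.7% of all kept probes were called, 19.0% higher and 17.7% lower. Under lenalidomide 3 were called higher and 1 lower, where 37.8% of all kept probes were called, 19.3% higher and 18.5% lower, so a line difference is common on these arrays. Over all probes 4245 of the 8304 calls under lenalidomide were higher in BCBL1, and with median scaling 3028 of 7878 were. With the processing used here, GAS6 was at least 9.46-fold higher in BCBL1 under DMSO on the first probe and at least 8.19-fold higher on the second. The fitted difference on the first probe was 3.42 ± 0.12 log2 units, set against BC3 DMSO arrays below background (limma, adjusted p = 4.89e-11). Under lenalidomide the first probe was 14.0-fold higher in BCBL1 (limma, adjusted p = 1.57e-11). The second was fitted 11.8-fold higher there, with 1 of the 2 BC3 arrays above background. These folds depend on how background is treated: over the other processing settings the log2 difference on the first probe ran from 2.69 to 4.84 under DMSO and from 3.17 to 5.02 under lenalidomide. GAS6 probe 3 was at least 1.72-fold higher in BCBL1 under DMSO and at least 2.38-fold under lenalidomide. GAS6 probes 2 and 3 were kept only through the BCBL1 arrays, so the filter itself favours a call here. Their calls between the lines support nothing, and no p-value is given for their line differences.

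PROS1 was lower in BCBL1 than in BC3, with a log2 difference of -0.50 ± 0.13 under DMSO (limma, adjusted p = 0.00662) and of -0.83 ± 0.13 under lenalidomide (limma, adjusted p = 0.000149). The DMSO call was lost without the first BC3 DMSO array (limma, adjusted p = 0.0558) and without the second BCBL1 DMSO array (limma, adjusted p = 0.0787). GGCX and VKORC1 had no called line difference: GGCX differed by -0.12 ± 0.14 under DMSO, and the VKORC1 probes by -0.18 ± 0.12 and -0.10 ± 0.16. By order of level, neighbouring GGCX groups overlapped throughout.

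TYRO3, a receptor kinase that binds both GAS6 and protein S, was above background in both lines and higher in BCBL1. It read 2126 and 2197 with lenalidomide and 2956 and 3204 with DMSO in BCBL1, and 561 and 499 with lenalidomide and 516 and 595 with DMSO in BC3. Under DMSO it was 2.64 ± 0.12 log2 units higher in BCBL1 than in BC3 (limma, adjusted p = 5.78e-10). The drug differences, -0.30 ± 0.12 in BCBL1 and -0.06 ± 0.12 in BC3, did not pass the test (limma, adjusted p = 0.259 and 0.867). MERTK, the receptor through which phagocytes take up dying cells, was above background on the 4 BCBL1 arrays and on none of the BC3 arrays with both of its probes. The probe ILMN_2138589 read 194 and 225 with lenalidomide and 210 and 246 with DMSO in BCBL1, against 111 to 133 in BC3. Neither of the 2 AXL probes was above background on both arrays of any group.

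Of 9 receptors and partners of GAS6 and protein S, 5 genes with 8 probes were kept. By limma 0 of the 8 were called for lenalidomide in either line, where 3.06% of all kept probes were called in BC3 and 2.05% in BCBL1. At those shares 0 of 8 says little about these genes. Unadjusted p under 0.05 was reached by 2 of them in BC3 and by 4 in BCBL1. Their median log2 change was 0.11 in BC3 and 0.07 in BCBL1, against -0.013 and -0.014 over all kept probes. TFPI, the tissue factor pathway inhibitor for which protein S is a cofactor, came nearest to the threshold. Its probe ILMN_1662619 read 2814 and 2298 with lenalidomide and 1764 and 2124 with DMSO in BC3, and 1870 and 2009 with lenalidomide and 1758 and 1473 with DMSO in BCBL1. The differences of 0.46 in BC3 and 0.50 in BCBL1 did not pass (limma, adjusted p = 0.0994 and 0.0884). The other kept TFPI probes did not pass either, with 0.40 in BC3 and 0.35 in BCBL1 on ILMN_1707124, and with 0.27 in BC3 and -0.10 in BCBL1 on ILMN_1701032.

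The other Gla-domain proteins were mostly at background. Of 12 genes, the clotting factors F2, F7, F9 and F10 among them, 3 had a kept probe: BGLAP (osteocalcin) and the transmembrane proteins PRRG2 and PRRG4. None of their 4 probes was called by limma for lenalidomide in BC3, where 3.06% of all kept probes were called, or in BCBL1, where 2.05% were. With 4 probes that says little. In each line 1 of the 4 had an unadjusted p under 0.05. The median log2 change was -0.03 in BC3 and -0.23 in BCBL1. PRRG2 was lower in BCBL1 than in BC3 under DMSO, with a log2 difference of -0.63 ± 0.13 (limma, adjusted p = 0.00136). The PRRG4 probe ILMN_1661809 read 143 and 154 in BCBL1 and 222 and 335 in BC3 under DMSO. The BCBL1 values were not above background and the probe was kept through BC3 alone, so no fold is given, and the other PRRG4 probe differed by 0.17 (limma, adjusted p = 0.418).

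Among genes of vitamin K metabolism and carboxylation partners, 5 of 7 genes were kept with 6 probes. By limma 1 of the 6 was called for lenalidomide in BC3, where 3.06% of all kept probes were called, and 0 in BCBL1, where 2.05% were. An unadjusted p under 0.05 was reached by 3 in BC3 and by 1 in BCBL1. The called gene was CYP4F11, a cytochrome P450 that hydroxylates the vitamin K side chain, at 315 and 284 with lenalidomide and 166 and 170 with DMSO in BC3. The rise there was 1.11 ± 0.19 log2 units (limma, adjusted p = 0.00592), and it was lost without the second array of either BC3 group (limma, adjusted p = 0.0819 and 0.0791), with an offset of 16 (limma, adjusted p = 0.0847) and in the authors' deposited log2 table (limma, adjusted p = 0.0745). In BCBL1 CYP4F11 read 127 and 173 with lenalidomide and 158 and 137 with DMSO, a difference of 0.11 (limma, adjusted p = 0.846). The difference between the lines' CYP4F11 effects, -0.99 ± 0.28, did not pass either (limma, adjusted p = 0.235).

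VKORC1L1, the paralogue of VKORC1 with the same reductase activity, read 1140 and 1148 with lenalidomide and 1151 and 1239 with DMSO in BC3. In BCBL1 it read 1342 and 1375 with lenalidomide and 1594 and 1545 with DMSO. After normalisation its drug differences were -0.03 ± 0.14 and 0.02 ± 0.14 (limma, adjusted p = 0.960 and 0.973), and with median scaling the BCBL1 value turned to -0.12. NQO1, a quinone reductase that can reduce vitamin K, differed by 0.37 in BC3 and 0.36 in BCBL1 on ILMN_1720282, and neither value passed (limma, adjusted p = 0.294 and 0.303).

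**Figure D4:**
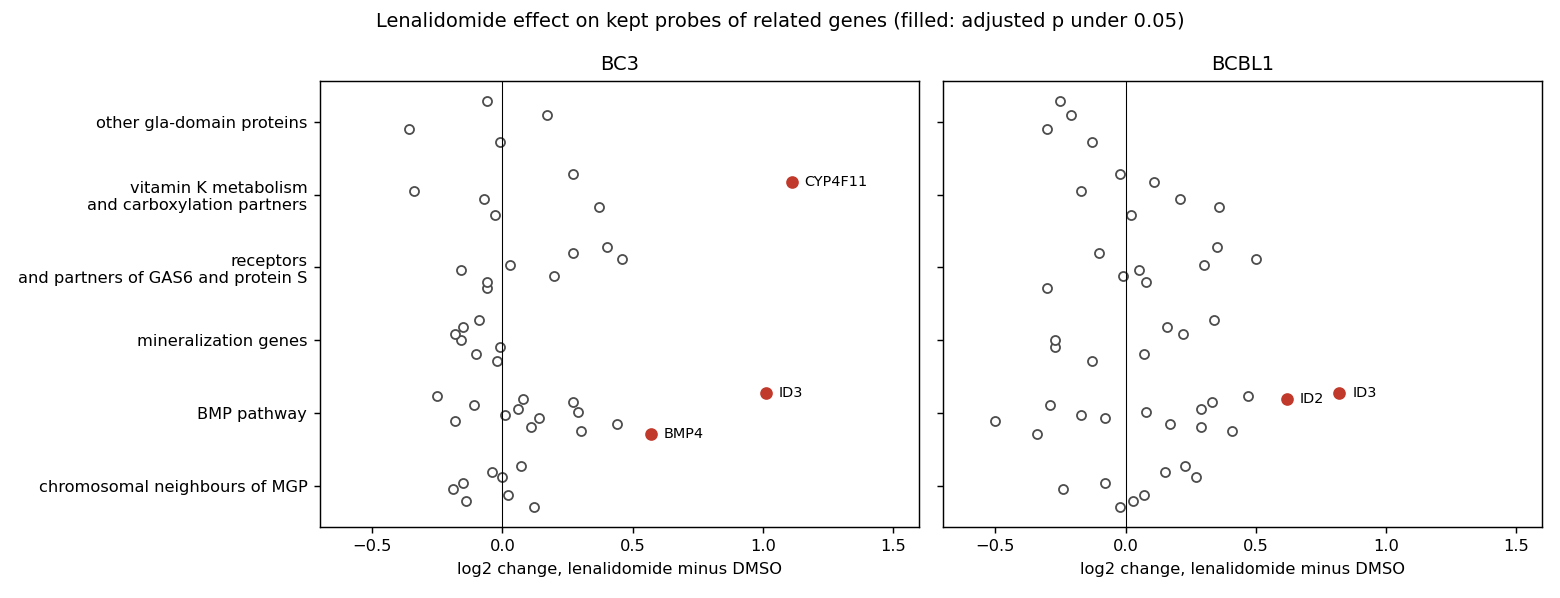
Log2 change with lenalidomide for the kept probes of 6 lists of related genes, with BC3 on the left and BCBL1 on the right. Filled points passed the test: CYP4F11, ID3 and BMP4 in BC3, and ID3 and ID2 in BCBL1; every other probe lies between -0.50 and 0.50.

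MGP binds bone morphogenetic proteins, and of 22 genes of that pathway 11 were kept with 14 probes. In BC3 2 of the 14 probes were called higher and 0 lower, where 2.27% of all kept probes were called higher, with a list median of 0.13. In BCBL1 2 of the 14 were called higher and 0 lower, where 1.52% of all kept probes were called higher, with a median of 0.23. ID3, an inhibitor of basic helix-loop-helix factors and a target of BMP signalling, was called in both. It read 2047 and 1881 with lenalidomide and 906 and 1217 with DMSO in BC3, and 182 and 222 with lenalidomide and 158 and 141 with DMSO in BCBL1. The rise was 1.01 ± 0.16 in BC3 and 0.82 ± 0.16 in BCBL1 (limma, adjusted p = 0.00258 and 0.0154). Of the 2 BCBL1 DMSO arrays, 1 was above background for ID3.

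The ID3 call in BC3 was lost without the second lenalidomide array (limma, adjusted p = 0.0546), and that in BCBL1 was lost without the second array of either group (limma, adjusted p = 0.144 and 0.147). ID2, a relative of ID3, was higher in BCBL1 by 0.62 ± 0.12 on one probe (limma, adjusted p = 0.0161), a call that ended when any BCBL1 array was left out (limma, adjusted p = 0.0738 to 0.116). The other ID2 probe differed by 0.47 ± 0.25 (limma, adjusted p = 0.409). BMP4, a ligand, read 254 and 224 with lenalidomide and 169 and 187 with DMSO in BC3, a rise of 0.57 ± 0.12 (limma, adjusted p = 0.0216). Without any 1 of the 4 BC3 arrays that call was lost (limma, adjusted p = 0.105 to 0.157), and all 4 BCBL1 arrays, at 114 to 145, were below background. With an offset of 16 the BC3 calls of ID3 and BMP4 and the BCBL1 call of ID2 were lost as well (limma, adjusted p = 0.0622, 0.0565 and 0.0652).

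Genes of mineralization, the process that MGP holds back, showed no call for the drug. Of 11 genes, 6 were kept with 7 probes. By limma 0 of them were called in either line, where 3.06% of all kept probes were called in BC3 and 2.05% in BCBL1. With shares that low, 0 calls among 7 probes say little about these genes. An unadjusted p under 0.05 was reached by 0 in BC3 and 2 in BCBL1. Their medians were -0.10 in BC3 and 0.07 in BCBL1.

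The genes beside MGP on its chromosome had no called change with the drug. Of the 10 protein-coding genes, 5 on either side in the RefSeq gene table, 6 were kept with 8 probes. By limma 0 were called for lenalidomide in either line, where 3.06% of all kept probes were called in BC3 and 2.05% in BCBL1. So few probes would hold few calls at those shares. An unadjusted p under 0.05 was reached by 0. Their medians were -0.02 in BC3 and 0.05 in BCBL1. ART4 and ERP27 are the adjacent genes in that table. ERP27 had no kept probe, and ART4 had a difference of 0.27 in BCBL1 (limma, adjusted p = 0.396).

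PTPRC, the leukocyte surface phosphatase among the lymphoma genes above, rose in BC3 by 0.67 log2 units on 1 of its 2 kept probes (limma, adjusted p = 0.0345). Its other kept probe differed by 0.46 (limma, adjusted p = 0.155). That was 1 call among the 10 kept probes of those lymphoma genes, where 3.06% of all kept probes were called in BC3. Whether the call holds under other processing was not tested, nor was the part of PTPRC in the other values. MGP is best known from smooth muscle and cartilage, so markers of such cells were read on the same arrays. All 7 probes of the chondrocyte genes COL2A1, ACAN, COMP, SOX9 and MATN3 summed to 902 to 986 with lenalidomide and 858 to 985 with DMSO in BC3. In BCBL1 they summed to 873 to 918 with lenalidomide and 888 to 907 with DMSO, and at most 1 of the 7 was above background on any array. The 8 smooth muscle probes summed to 1707 to 1962 with lenalidomide and 1596 to 1843 with DMSO in BC3, and to 1145 to 1185 and 1133 to 1235 in BCBL1. Of those 8 probes, 1 or 2 were above background on each array. ACTA2 was the one smooth muscle gene kept, and it was above background on all 8 arrays. It read 1032 and 805 with lenalidomide and 726 and 844 with DMSO in BC3. In BCBL1 it read 254 and 250 with lenalidomide and 238 and 250 with DMSO. BCBL1 minus BC3 under DMSO was -1.90 ± 0.12 (limma, adjusted p = 3.13e-08). The ACTA2 drug differences of 0.27 in BC3 and 0.25 in BCBL1 did not pass the test (limma, adjusted p = 0.329 and 0.382). The 11 fibroblast probes had 0 to 3 above background and the 6 endothelial probes 0 or 1 on each array.

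The probes whose pattern over the 8 arrays was most like MGP were looked for among 2422 kept probes whose group means spanned at least 1 log2 unit. Pearson's r with the first MGP probe was 0.992 for FGD6, 0.986 and 0.982 for 2 probes of the kinase SGK1, 0.975 for the NF-kB-binding protein BCL3, 0.975 for the calcineurin regulator RCAN1 and 0.973 for CDC42EP5. The 8 points share 4 groups and their depth, so these values only describe a likeness in order. FGD6 read 241 and 219 with lenalidomide and 159 and 167 with DMSO in BC3, and 244 and 270 with lenalidomide and 168 and 181 with DMSO in BCBL1. For the 4 probes of FGD6, SGK1 and BCL3, above background on all 8 arrays, the log2 changes ran from 0.58 to 0.69 in BC3 and from 0.98 to 1.25 in BCBL1, against 3.55 and 6.17 for MGP. RCAN1 and CDC42EP5 were not above background on the 4 DMSO arrays, so no size is given for them.

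**Figure D5:**
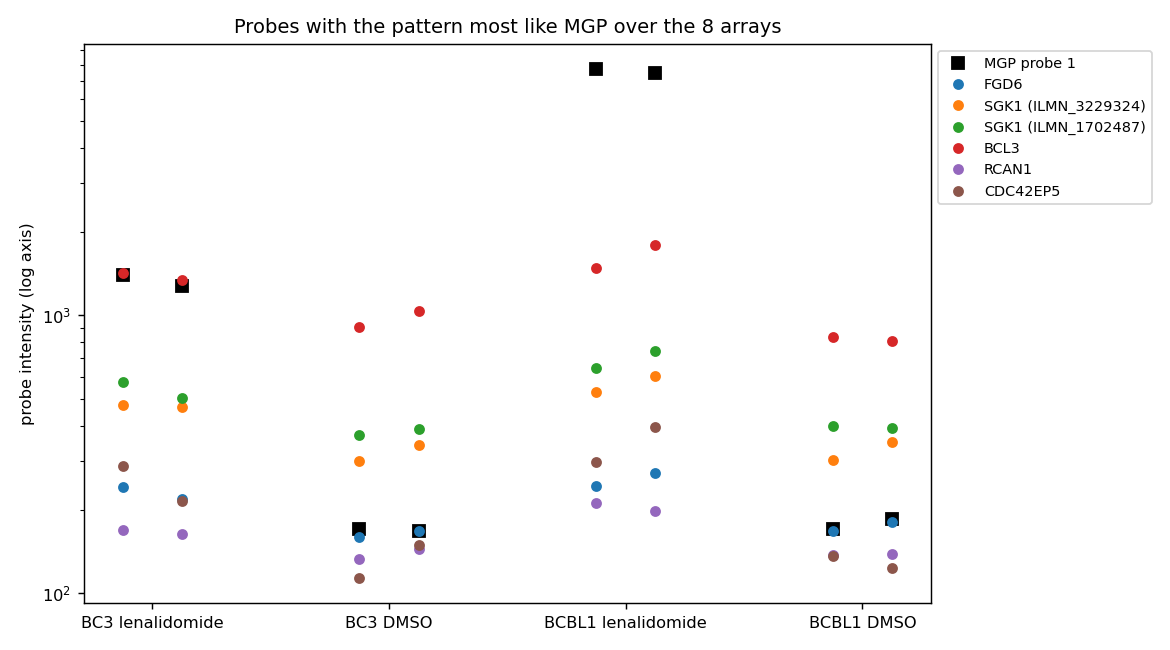
Intensity of the first MGP probe (squares) and of the 6 probes with the most similar pattern (circles) on each array (log axis, arbitrary scanner units), grouped by line and treatment. All 7 are highest on the BCBL1 lenalidomide arrays, with MGP spanning 167 to 7683 and FGD6 159 to 270.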

How the data were processed

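Total RNA labelled with Cy3 was read on 8 one-colour Illumina bead arrays, 2 per group. The authors deposited a table of non-normalised probe intensity values, per the file headers, and a table of log2 values; the submitters' processing notes name limma. How the log2 table was corrected and scaled is not stated in the files or labels used here, and each of its columns had a median of 4.91 and ranked the probes as the matching array does (rank correlation 1.0000). It served only as an alternative.

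From the intensities, 1 of 47323 probes was left out for a value of 0. The rest were corrected with limma 3.58.1 (R 4.3.3; normexp with offset 50), quantile normalised and put on the log2 scale. Background on each array was the mode of its log2 signals with the SD of the side below it, at p 0.05; 21969 probes (46.4%) passed, being above it on both arrays of some group. Group means were estimated from the 8 arrays together with eBayes (4 residual and 9.58 prior degrees of freedom), with Benjamini-Hochberg adjustment over all kept probes and a threshold of 0.05. A second fit used group means with the line as block. An "at least" fold sets each array of the dim group to the higher of its lowest above-background signal and the probe's own. Columns of other samples numbered 0.

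Symbols came from the platform annotation, with 30113 probes having 1 symbol, 8 several and 17201 none here; 30074 of the first were found in RefSeq's gene table. All member probes are named. Of each related list, called genes could be named, up to 4 a comparison, and not all of them were. VKORC1L1, TYRO3, AXL and MERTK were always named, and for likeness to MGP the 6 highest correlations. TFPI, NQO1, BGLAP and ART4 were named after their values were seen. TFPI, NQO1 and ART4 also had called differences between the lines, which are not described here. The members, lists and rules were chosen with earlier results of these data known. Chip position and scan date were not used here. Precision is limited by the number of arrays. The alternatives were offset 16, no background correction, cyclic loess, median scaling, other filters, the brightest probe of a gene, the authors' log2 table with and without the replicate number as block, and each array left out. A background described on the linear scale was added after the data were seen. The statistical steps were tested on simulated data.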

Additional observations from a re-analysis of the deposited data

Results flagged for a closer look

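BMP4, which encodes a ligand that MGP can bind, was picked out because the difference between its drug effects in the 2 lines passed the test among the related genes. The effect in BCBL1 minus that in BC3 was -0.91 ± 0.17 log2 units (limma, adjusted p = 0.0488). BMP4 read 114 and 125 with lenalidomide and 134 and 145 with DMSO in BCBL1, all below background, and 254 and 224 with lenalidomide and 169 and 187 with DMSO in BC3, all above it. The BCBL1 side of the contrast is therefore a difference between values that were not above background. The call held in 1 of 9 other settings and with 0 of the 8 arrays left out, with adjusted p from 0.0292 to 0.217 by limma.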

How the results depend on the processing

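The MGP rise kept its direction under every alternative run. On the first probe it was 4.07 in BC3 and 6.67 in BCBL1 with offset 16, 2.96 and 5.57 without background correction, and 4.62 and 7.17 in the authors' log2 table with or without the replicate block. With 1 array left out it ran from 3.40 to 3.67 in BC3 and from 6.13 to 6.24 in BCBL1.

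Of the member probes other than MGP, 3 were called in BCBL1; the count was 1 with offset 16, 1 with the filter on all 8 arrays, 1 with the authors' table, 0 with that table and the replicate block and 0 to 3 with an array left out. In BC3 it was 2 without background correction and 1 with every array left out. For BCBL1 against BC3 it was 1 with the filter on all 8 arrays and 2 with the brightest probe of a gene, under DMSO and under lenalidomide alike, where fewer member probes enter. With the line as replicate it was 0 with offset 16, 2 with cyclic loess, 2 with median scaling, 3 with no filter and 0 with the authors' table. The causes were not tested. The replicate numbers were not taken to pair the arrays: between groups their deviations correlated at -0.078 to 0.047 in 6 group pairs, 0 of them over 0.1. The replicate block was run on the authors' table. There it gave 239 calls over all probes in BC3, 127 in BCBL1 and 11 for the difference, against 346, 210 and 20 in that table without it, and PROS1 in BCBL1 (0.99) passed without the block and had an adjusted p of 0.0625 by limma with it.

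Calls over all probes numbered 673 in BC3, 451 in BCBL1 and 67 for the difference. They numbered 318, 210 and 21 with offset 16, and as above in the authors' table. With the filter on all 8 arrays the difference had 26. With an array left out they ran down to 208, 161 and 33. The line fit had 265 against 26 with offset 16, 398 without background correction, 629 with median scaling, 534 with no filter and 0 in the authors' table; taking the brightest probe of a gene, the line comparisons had 5221 under DMSO and 5400 under lenalidomide over fewer features.

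Signs turned for values that were not called. MGP probe 1 ran from -0.007 to 0.25 between lines under DMSO with an array left out. With offset 16 the line difference of drug effects was -0.051 on GAS6 probe 2 and -0.003 on probe 3. With cyclic loess VKORC1 probe 1 was 0.007 between lines under lenalidomide. With median scaling the line difference of drug effects on VKORC1 probe 2 was -0.076 and VKORC1L1 in BCBL1 was -0.12. With an array left out, VKORC1 probe 2 ran from -0.21 to 0.31 for the difference of effects, -0.46 to 0.054 for the drug in BCBL1 and -0.31 to 0.21 between lines under lenalidomide. VKORC1 probe 1 ran from -0.038 to 0.013 between lines under lenalidomide, GGCX from -0.015 to 0.25 for the drug in BCBL1, and VKORC1L1 from -0.18 to 0.13 in BC3 and -0.049 to 0.080 in BCBL1. MERTK ran from -0.23 to 0.11 in BC3 and -0.058 to 0.23 in BCBL1 on ILMN_1770610, and from -0.12 to 0.10 in BCBL1 on ILMN_2138589. Levels at or near background, as for MGP under DMSO and GAS6 in BC3, bound what these arrays can show.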
